A study of Mus musculus with 10 samples.

Results

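The cornified envelope is the protein shell that replaces the plasma membrane of keratinocytes at the surface of the epidermis. The genes described here were chosen by symbol: every probe whose platform gene symbol begins with Lce or Sprr, and the probes of 20 further genes for the scaffold, the filaggrin-type proteins, secreted and adhesion proteins and the proteases of the cornified layer. The rule found 59 of the 41174 probes of the table, for 47 of the 19532 genes named there by a probe with a single symbol. Of the 47 genes, 38 had a probe with a value in at least 3 skin samples of each age and could be tested, out of 13501 such genes. On chromosome 3 lie 34 of the 47 genes, in the epidermal differentiation complex.

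Skin of mice with the genotype Tsk2 was compared at 1 month and at 4 months of age, with 4 skin samples at each age. Tsk2 mice have tight skin, serve as a model of scleroderma and carry a mutation of the collagen gene Col3a1; the sample titles call the animals Tsk2 transgenic and the series' design text names Tsk2/+ mice. Both ages carry the mutation, wild-type skin was not analysed here, and strain, sex, body site and treatment are not given in the labels, so age is the only labelled contrast. Each skin RNA was hybridised with Cy3 against a common reference RNA, named UMR and labelled with Cy5, and 2 of the samples (1-month sample 1 and 4-month sample 2) were run on 2 arrays, which gave 10 arrays. Titles give each sample an ID number: 1-month samples 1 and 2 share a number, 1-month samples 3 and 4 share another, 4-month samples 2 and 3 share another again, and 4-month samples 1 and 4 have their own. No number occurs at both ages, so age cannot be told apart from differences between ID numbers, and nothing states that samples with a shared number come from separate animals. The p-values therefore measure the spread between these samples.

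As a keratinocyte leaves the granular layer, envoplakin, periplakin and involucrin are laid down under the membrane, and transglutaminases then crosslink loricrin, small proline-rich proteins and late cornified envelope proteins onto that scaffold. Filaggrin and its relatives bundle keratin filaments inside the cell and are later broken down into small molecules that hold water. Corneodesmosin holds the dead cells together until kallikrein proteases, restrained by the inhibitor encoded by Spink5, cut it so that the cells are shed. In the interfollicular epidermis most of the set is switched on late in differentiation, while small proline-rich genes are also known for high expression in stressed or wounded skin.

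All levels are log2 ratios of skin over reference for one gene, so levels of different genes are not set against each other, and a difference is the level at 4 months minus that at 1 month. The direction of the deposited ratios is likely rather than stated. It was read without the genes described here, from the median over the marker probes of each cell type on each array. The medians for basal keratinocytes, spinous keratinocytes and skeletal muscle lay above 0 on 10 of 10 arrays. Those for cell division and B cells lay below 0 on 10 of 10. The cell division median was -0.138 on its highest array, and single genes could lie above 0, as Mki67 at 0.49 in 1-month sample 1. With the other direction every difference would change sign and keep its size. An exact 0 was read as not measured; such zeros made up 26% to 47.4% of an array. Both repeated samples show that a 0 is not always a low level. In 1-month sample 1, 9 probes of these genes were at 0 on 1 array and measured on the other, at up to 9.03, and in 4-month sample 2 there were 13 such probes, at up to 6.52. Where both arrays gave a value, the median size of the difference between them was 0.279 over 41 probes and 0.388 over 40 probes. In whole skin, fewer cells of a type and less RNA per cell cannot be told apart.

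Suprabasin (Sbsn) was the only gene of the set past the test described below. Neighbouring Lce1 genes had the largest positive differences and Sprr1a and Sprr1b the largest negative ones, and none of these passed. Lor encodes the major envelope protein. For these reasons the sequences 250 bases upstream of the start of 7 genes are shown. They come from RefSeq on GRCm38.p6, read 5′ to 3′ in the direction of the gene, at Sbsn chr7:30751221-30751470 on the plus strand, Lor chr3:92083143-92083392 on the minus strand, Sprr1a chr3:92485882-92486131 on the minus strand, Sprr1b chr3:92438780-92439029 on the minus strand, Lce1g chr3:92752339-92752588 on the minus strand, Lce1h chr3:92765066-92765315 on the minus strand and Lce1i chr3:92778900-92779149 on the minus strand. Capitals mark matches to the AP-1 letters.
Sbsn: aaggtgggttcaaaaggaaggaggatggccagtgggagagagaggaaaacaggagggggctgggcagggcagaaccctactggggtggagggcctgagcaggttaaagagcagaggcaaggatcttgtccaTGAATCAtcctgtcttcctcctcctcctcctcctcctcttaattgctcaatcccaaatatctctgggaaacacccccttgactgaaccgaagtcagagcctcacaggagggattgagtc
Lor: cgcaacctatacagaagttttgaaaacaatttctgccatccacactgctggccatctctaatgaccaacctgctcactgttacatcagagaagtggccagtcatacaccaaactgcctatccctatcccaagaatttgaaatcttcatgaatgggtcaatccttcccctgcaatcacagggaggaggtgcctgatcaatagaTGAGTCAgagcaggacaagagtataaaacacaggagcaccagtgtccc
Sprr1a: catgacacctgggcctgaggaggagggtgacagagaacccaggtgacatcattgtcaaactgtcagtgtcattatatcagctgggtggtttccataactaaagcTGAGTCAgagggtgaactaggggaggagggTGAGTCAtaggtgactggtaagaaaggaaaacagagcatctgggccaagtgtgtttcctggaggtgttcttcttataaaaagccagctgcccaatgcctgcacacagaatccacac
Sprr1b: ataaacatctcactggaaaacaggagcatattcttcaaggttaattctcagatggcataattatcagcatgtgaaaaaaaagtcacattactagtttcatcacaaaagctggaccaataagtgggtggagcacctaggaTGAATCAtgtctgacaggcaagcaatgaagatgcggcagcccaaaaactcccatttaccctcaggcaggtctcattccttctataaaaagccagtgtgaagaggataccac
Lce1g: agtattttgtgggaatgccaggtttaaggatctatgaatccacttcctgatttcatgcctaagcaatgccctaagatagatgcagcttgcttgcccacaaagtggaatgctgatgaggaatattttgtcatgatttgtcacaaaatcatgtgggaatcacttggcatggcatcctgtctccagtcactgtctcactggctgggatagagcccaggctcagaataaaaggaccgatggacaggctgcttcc
Lce1h: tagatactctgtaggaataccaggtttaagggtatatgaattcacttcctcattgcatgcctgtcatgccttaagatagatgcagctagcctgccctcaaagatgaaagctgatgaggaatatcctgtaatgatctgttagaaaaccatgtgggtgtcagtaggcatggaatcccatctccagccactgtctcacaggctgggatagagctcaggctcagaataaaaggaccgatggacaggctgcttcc
Lce1i: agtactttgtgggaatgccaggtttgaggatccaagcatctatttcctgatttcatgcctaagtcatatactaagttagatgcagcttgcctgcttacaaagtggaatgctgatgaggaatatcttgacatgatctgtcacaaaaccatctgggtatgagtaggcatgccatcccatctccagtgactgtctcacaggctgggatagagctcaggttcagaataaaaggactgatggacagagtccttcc

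AP-1 is the Fos and Jun family of transcription factors, known to act on envelope genes. The letters TGANTCA, searched on both strands, were found within these 250 bases in 6.75% of 32851 RefSeq promoters. They were found in 18 of the 42 promoters listed for genes of the rule, or 42.9%. By gene, the letters were present in 8 of 11 Sprr genes with a listed promoter, in 8 of 15 genes outside both families, and in 0 of 13 Lce genes. In Sbsn the match begins 119 bases before the start, in Lor 48 bases, in Sprr1b 111 bases, and in Sprr1a there are 2 matches, 146 and 116 bases before it. A second set of letters, CACCC for KLF factors, was searched in the same way and was present in 52.4% of these promoters and 52.0% of all. Matches describe the letters only, and the motifs were chosen with the values of the genes known. Among 11 Lce1 genes the upstream sequences shared a median of 33.6% of their letters over 55 pairs, compared base by base without gaps, with a range of 22.0% to 85.6%. Lce1g and Lce1i made up the closest pair at 85.6%, Lce1g and Lce1h shared 69.2%, and Lce1h and Lce1i shared 66.8%.

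Between 1 and 4 months, 1 of the 38 tested genes passed the test, suprabasin, which rose, and 0 fell. The test was limma with the ID number as a random block and Benjamini-Hochberg adjustment over all 13501 genes at 0.05. Over all genes 7.25% passed, 4.19% higher and 3.06% lower at 4 months, so the share among the envelope genes, 2.63%, lay below that of the table. At an unadjusted p under 0.05 there were 4 genes, or 10.5%, against 24.3% of all genes. The 2 ages did not overlap in 3 genes, or 7.89% against 21.1% of all genes. Sbsn and Lce1g were higher in every 4-month sample, as 10.9% of all genes were, and Ppl was lower, as 10.2% were. The difference was above 0 in 26 of 38 genes, or 68.4% against 52.3%, with a median of 0.35 against 0.03 over all genes. This count depended on the scaling and on single samples. After quantile normalization 19 of 38 were above 0, and relative to the keratins Krt5, Krt14, Krt1 and Krt10 it was 17 of 38, with a median of -0.05. Without 1-month sample 1, 16 of 34 were above 0 and the median turned to -0.07, without 4-month sample 3 the median was 0.11, and without 1-month sample 2 or 4-month sample 1 it was 0.55 and 0.57. The median standard error was 0.59 against 0.31 over all genes, so the envelope genes varied more between samples than most genes did.

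**Figure D1:**
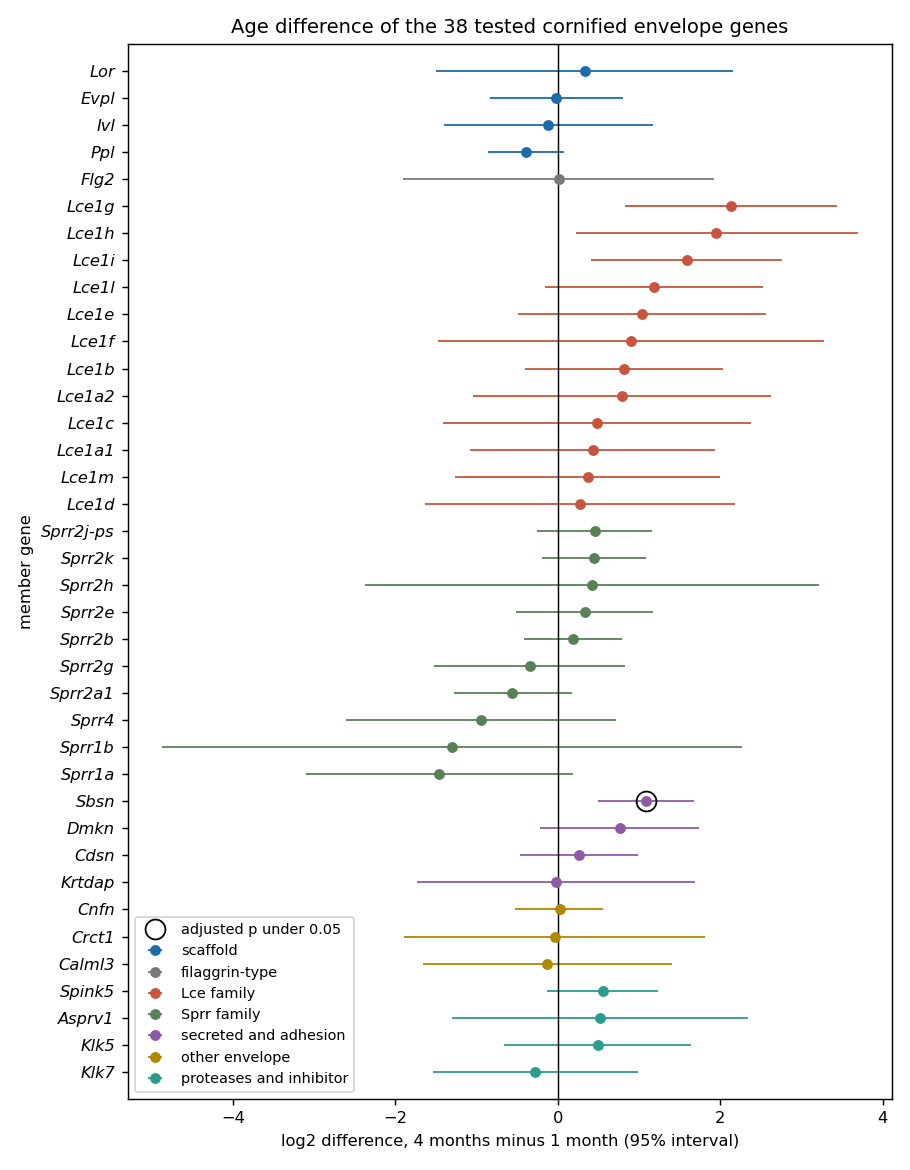
Log2 difference of each of the 38 tested genes, 4 months minus 1 month, with its 95% interval from the limma fit, coloured by role. All 12 Lce genes lie to the right of 0 (10 after quantile normalization and 11 relative to keratins), the Sprr genes lie on both sides, and 1 gene, Sbsn, is ringed as past the adjusted threshold.

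A pair of samples stood apart within their ages. Among 33 genes of the rule with a value in all 4 samples of an age, 1-month sample 2 was the highest of its age in 27 and 4-month sample 3 in 19. The basal keratinocyte list was highest in the same samples, with a mean of 4.36 in 1-month sample 2 against 2.91 to 3.15 in the other 1-month samples, and 4.39 in 4-month sample 3 against 3.19 to 3.89. The spinous list had means of 6.57 and 6.96 in these samples, and the lists for muscle (5.64 and 6.37) and fat (7.63 and 7.90) were also highest there. The part of these shifts in the results was not tested. Without both samples, and without the ID block, 3 of 36 tested genes of the rule passed, against 9.6% of all genes. They were Lce1f, Lce1g and Lce1i, each higher, and Sbsn had a difference of 1.07 (limma adjusted p = 0.0581). With all 8 samples and no block, 3 of 38 passed as well, Lce1g, Lce1i and Sbsn, against 15% of all genes.

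Among the scaffold genes, 0 of 4 passed, and the differences ran from -0.39 to 0.33 with a median of -0.07. Loricrin, encoded by Lor, makes up most of the envelope's protein. Its level was 5.59, 8.26, 5.26 and 5.57 in the 1-month samples and 5.75, 6.35, 7.93 and 6.27 in the 4-month samples. The ages overlapped, and the high value of each age was in the sample that stood apart. The difference was 0.33 (95% interval -1.50 to 2.16, limma adjusted p = 0.856), an interval that reaches well to both sides of 0. Involucrin, encoded by Ivl and laid down early, measured 3.49, 2.92, 5.08 and 5.55 at 1 month and 3.69, 3.99, 3.87 and 4.92 at 4 months. Here 1-month samples 3 and 4, which share an ID number, were high, and 4-month sample 4 was the highest of its age; the difference was -0.12 (adjusted p = 0.930).

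Envoplakin and periplakin link the envelope to keratin filaments and desmosomes. Evpl measured 3.95, 4.89, 4.08 and 4.27 at 1 month and 3.64, 4.73, 4.89 and 4.11 at 4 months, with a difference of -0.02 (adjusted p = 0.987). Ppl measured 3.04, 2.87, 3.02 and 3.05 at 1 month and 2.69, 2.74, 2.33 and 2.62 at 4 months. Every 4-month value of Ppl was below every 1-month value, and the difference of -0.39 ± 0.21 (SE) did not pass (adjusted p = 0.293). Its 2 probes gave -0.12 and -0.66.

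The late cornified envelope family encodes small proteins added in the outermost layers. It had 14 genes on the array, of which 12 were tested; all 12 had a difference above 0 (10 after quantile normalization and 11 relative to keratins), with a median of 0.86 and a range of 0.27 to 2.13. None passed the adjusted test, while 3 of 12 had an unadjusted p under 0.05: Lce1g, Lce1h and Lce1i. That share was near the 24.3% of all genes. Lce1g, chosen by rule as the highest difference of the family, measured -1.08, 0.61, -0.62 and -0.85 at 1 month and 0.80, 1.15, 1.63 and 2.88 at 4 months. All 4-month values of Lce1g lay above all 1-month values, by 2.13 ± 0.58 (SE; 95% interval 0.83 to 3.43), which is 4.39-fold, with an adjusted p of 0.0568. The call depended on the fit: the adjusted p was 0.0222 without the ID block, 0.0455 after centring each sample on its median, 0.0339 without 1-month sample 2, 0.0412 without 4-month sample 4, and 0.181 without 1-month sample 1. Over all alternatives it ran from 0.0222 to 0.368. A second Lce1g probe had values in 2 of the 1-month samples and was left out by the filter. It measured 0.63 and 0.23 in 1-month samples 3 and 4 and 0.42, 0.48, 0.12 and 0.03 at 4 months, and all 6 of its arrays held a value shared by many dim spots. This probe did not show the difference of the first. Where it entered, the difference of Lce1g was 1.27 (adjusted p = 0.125, probes with at least 2 samples of each age) or 1.06 (adjusted p = 0.111, exact zeros kept).

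The neighbours of Lce1g on chromosome 3 were looked at after the values were seen. Lce1h measured 1.97, 4.31 and 1.29 in 1-month samples 1 to 3, with no value in sample 4, and 5.04, 4.09, 4.46 and 3.81 at 4 months. The low values of Lce1h were 1-month samples 1 and 3, and 1-month sample 2 fell among the 4-month values; the difference was 1.95 (adjusted p = 0.161). Lce1i measured 2.12, 3.88, 1.94 and 1.74 at 1 month and 3.54, 4.12, 4.58 and 3.96 at 4 months. Again 1-month sample 2 alone reached the 4-month range, and the difference was 1.59 ± 0.53 (SE, adjusted p = 0.100). Leaving out single samples gave 1.22 (adjusted p = 0.307, without 1-month sample 1) to 2.02 (adjusted p = 0.0185, without 1-month sample 2), and only the latter passed among these. Lce1l measured -0.02, 0.70, 0.20 and -1.89 at 1 month and 0.31, 1.25, 1.27 and 1.07 at 4 months, with a difference of 1.18 (adjusted p = 0.266), and 6 of its 9 measured arrays held a value that many dim spots share. Lce1g, Lce1h, Lce1i and Lce1l follow one another among the Lce genes on the chromosome, apart from Lce1j and Lce1k, which have no probe of that name in the table. Lce1 transcripts are closely related, and whether a probe also detects a neighbour's transcript was not tested.

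**Figure D2:**
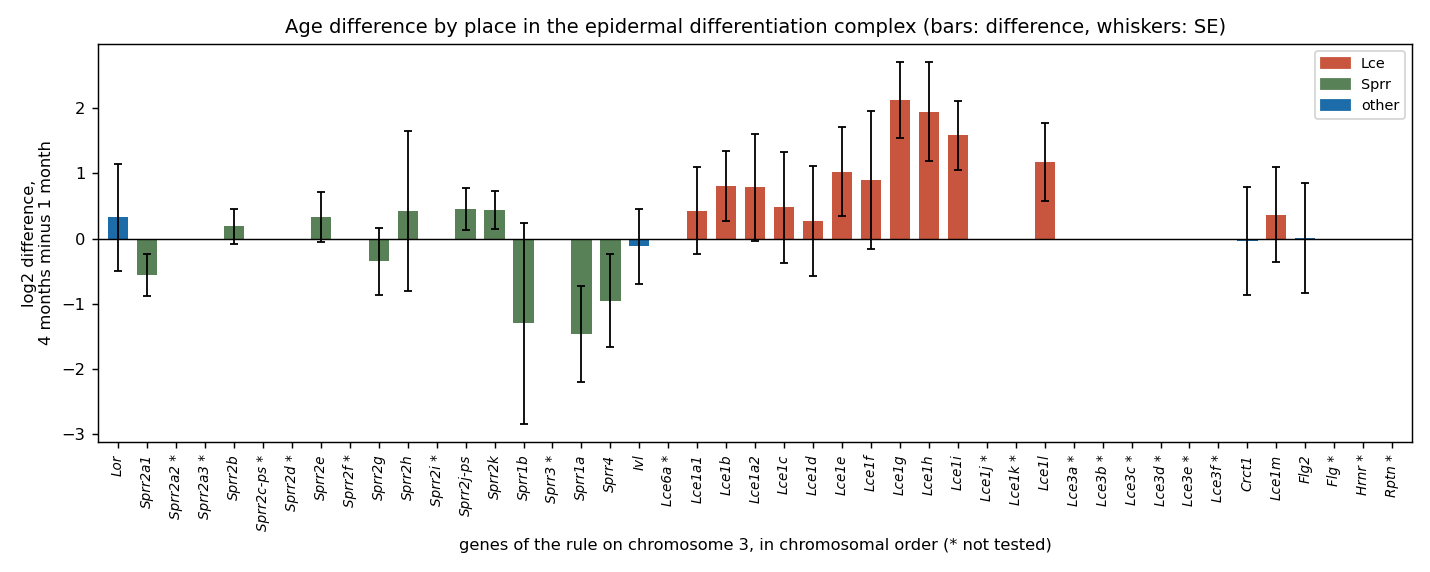
Log2 difference, 4 months minus 1 month, of the genes of the rule on chromosome 3 in chromosomal order, with whiskers of 1 SE; genes with no bar and an asterisk were not tested. The tallest bars are the adjacent Lce1g, Lce1h and Lce1i at 2.13, 1.95 and 1.59, and the lowest are Sprr1b and Sprr1a at -1.30 and -1.46.

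The other 8 tested Lce genes had differences of 0.27 to 1.03. Lce1d had the smallest, with 3.50, 6.15, 3.49 and 3.23 at 1 month and 3.52, 4.42, 6.08 and 3.86 at 4 months, a difference of 0.27 (adjusted p = 0.886). As for loricrin, 1-month sample 2 and 4-month sample 3 were the high values. Without 1-month sample 1, 7 of 11 tested Lce genes were above 0, with a median of 0.22, and without 4-month sample 3 it was 10 of 12, with a median of 0.51. Of the Lce3 genes, known for high expression after barrier damage, neither could be tested. A probe of Lce3c gave 0.79, 1.75, 4.85 and 5.05 at 1 month, and 4.10 and 6.05 in 4-month samples 2 and 4. Its other probe gave 1.75, 4.37 and 4.64 in 1-month samples 2, 3 and 4, and 2.43 and 4.27 in 4-month samples 1 and 4.

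**Figure D3:**
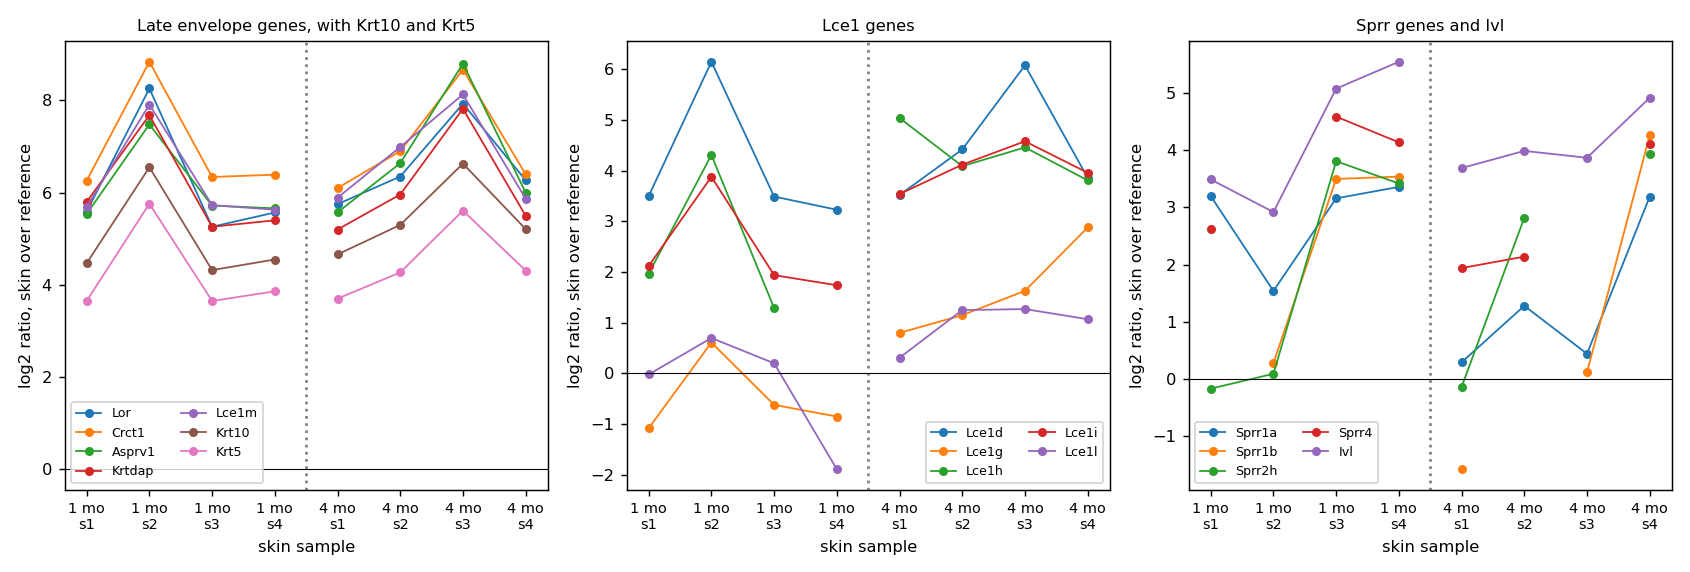
Log2 ratio of skin over reference in each of the 8 samples for late envelope genes with Krt10 and Krt5 (left), Lce1 genes (middle) and Sprr genes with Ivl (right); lines join samples of an age and mark no order, and gaps are samples with no value. On the left 1-month sample 2 and 4-month sample 3 are high throughout, as for Lor at 8.26 and 7.93. In the middle Lce1g separates the ages. On the right 1-month samples 3 and 4 and 4-month sample 4 are high, as for Ivl at 5.08, 5.55 and 4.92. Sprr1a in the same panel is also high in 1-month sample 1, at 3.20.

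Small proline-rich proteins act as cross-bridges between other envelope proteins. Of 13 Sprr genes on the array 10 were tested, with 5 differences above 0 and 5 below, a median of -0.08 and a range of -1.46 to 0.45. None passed, and none had an unadjusted p under 0.05. Sprr1a had the lowest difference, with 3.20, 1.54, 3.16 and 3.36 at 1 month and 0.29, 1.28, 0.44 and 3.19 at 4 months. 4-month samples 1, 2 and 3 lay below every 1-month sample, while 4-month sample 4 lay within the 1-month range. The difference was -1.46 ± 0.74 (SE, adjusted p = 0.261), and single samples moved it in both directions. It was -2.17 and passed without 4-month sample 4 (adjusted p = 0.0231), and it was -1.04 without 4-month sample 1 (adjusted p = 0.473) and -1.09 without 1-month sample 1 (adjusted p = 0.560).

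Sprr1b, the neighbour of Sprr1a beyond Sprr3, measured 0.28, 3.50 and 3.54 in 1-month samples 2 to 4 and -1.58, 0.12 and 4.26 in 4-month samples 1, 3 and 4. Of its 6 measured arrays, 3 held a value shared by many dim spots, and the difference was -1.30 (adjusted p = 0.671). Sprr2h measured -0.17, 0.09, 3.81 and 3.42 at 1 month and -0.14, 2.82 and 3.94 in 4-month samples 1, 2 and 4, a difference of 0.42 (adjusted p = 0.878). For Sprr2h, 4 of its 9 measured arrays held a value shared by many dim spots. Sprr1b, Sprr2h and Ivl had their highest values in the same samples, 1-month samples 3 and 4 and 4-month sample 4. Sprr4, at 2.63, 4.59 and 4.14 in 1-month samples 1, 3 and 4 and 1.94, 2.14 and 4.11 in 4-month samples 1, 2 and 4, was high in the same samples. Its difference was -0.95 (adjusted p = 0.475).

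Some genes outside the rule that are known for inflamed or wounded epidermis, picked after their values were seen, were high in the same 3 samples. S100a8, which encodes a calcium-binding alarmin, measured 2.66, 2.66 and 3.42 in these 3 samples and -2.03 to 0.32 in the other 5. S100a7a measured 4.99, 4.49 and 3.07 against -1.58 to 2.44, and the keratin Krt6b measured 4.37, 4.14 and 4.96 against -0.76 to 1.40 in the other samples with a value. The other genes of the hyperproliferative list did not all do so: Krt16 was highest of its age in these samples, Krt6a was 3.66 in both 4-month samples 2 and 4, and Krt17 was highest in 1-month sample 2 at 5.79 and 4-month sample 3 at 5.49. The pattern was not confined to genes known for inflamed or wounded epidermis. In the same 3 samples Tchh of the hair follicle list measured 8.23, 7.65 and 6.86, against 3.94 to 5.95 in the other samples with a value. The regulator Grhl1 measured 6.50, 6.43 and 5.91 against 4.80 to 5.76. Krt71 of the hair follicle list was instead highest in 1-month sample 2 at 8.29 and 4-month sample 3 at 7.60. The part of these patterns in the age differences was not tested. At the other end of the family, Sprr2j-ps had the highest difference, with 1.09, 1.43, 0.83 and 0.52 at 1 month and 1.13, 1.11, 1.95 and 1.53 at 4 months, a difference of 0.45 (adjusted p = 0.433). The remaining Sprr2 genes tested, Sprr2a1, Sprr2b, Sprr2e, Sprr2g and Sprr2k, had gene values between -0.68 and 1.54 in every sample. For Sprr2g, 9 of 10 arrays held a value shared by many dim spots, so its values cannot be read as a level near the reference. A second Sprr2a1 probe was left out by the filter. It measured 3.22 and 0.29 in 1-month samples 2 and 3 and 1.24, -0.07, 2.16 and 4.05 at 4 months, with 3 of its 6 arrays at shared values.

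Suprabasin is a secreted protein of the upper epidermis. Sbsn measured 3.36, 3.52, 3.93 and 4.00 at 1 month and 4.52, 4.68, 4.59 and 5.28 at 4 months. The ages did not overlap, with means of 3.70 ± 0.31 and 4.77 ± 0.35 (SD, n = 4 each). The gene rose by 1.09 ± 0.27 on the log2 scale (SE; 95% interval 0.49 to 1.68), which is 2.12-fold, with a limma adjusted p of 0.0411. The call rests on the mean of 2 probes that disagree. Probe 1 measured 3.17, 2.12, 4.58 and 4.46 at 1 month and 5.14, 4.91, 4.30 and 6.31 at 4 months, with a difference of 1.65 (adjusted p = 0.145). Probe 2 measured 3.54, 4.91, 3.28 and 3.54 at 1 month and 3.90, 4.45, 4.88 and 4.26 at 4 months, with a difference of 0.52 (adjusted p = 0.522). Each probe overlapped between the ages, and 1-month sample 2 was the lowest of its age on one and the highest on the other. The call was lost in 12 of 21 alternative gene-level fits, among them 5 fits that left out a single sample, namely sample 1 or 2 of the 1-month age and sample 1, 2 or 3 of the 4-month age (adjusted p = 0.0627 to 0.139). Over all alternatives the adjusted p ran from 0.0203 to 0.998.

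**Figure D4:**
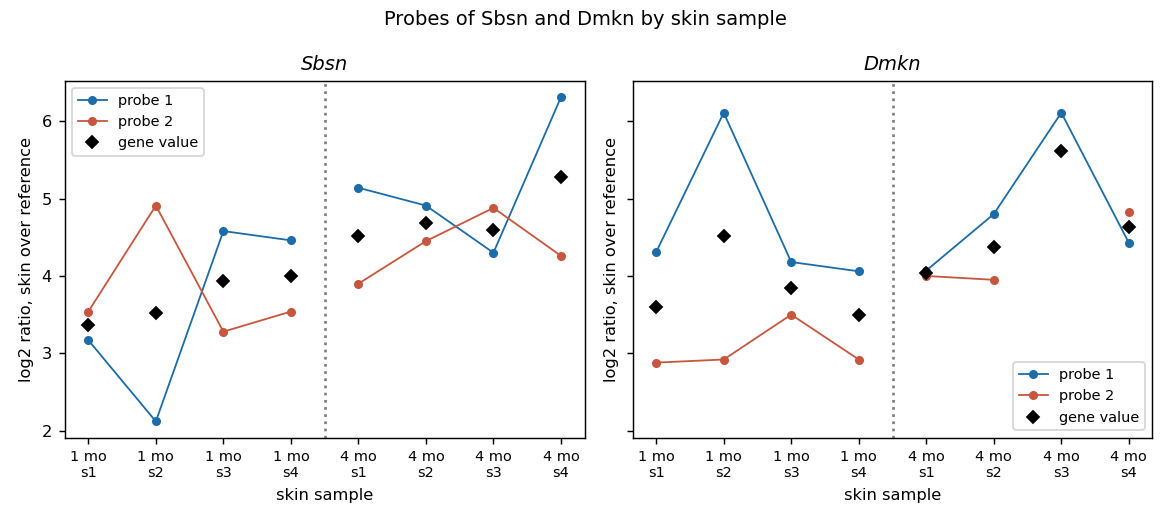
Log2 ratio of skin over reference in each sample for both probes of Sbsn (left) and of Dmkn (right), with diamonds for the gene value. For Sbsn the probes run in opposite directions in 1-month sample 2, at 2.12 and 4.91, while the gene values of the ages, 3.36 to 4.00 and 4.52 to 5.28, do not overlap.

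Dermokine, encoded by Dmkn, is secreted by the same layers and its gene lies in the same cluster as Sbsn and Krtdap. Its difference was 0.76 (adjusted p = 0.328), with 0.12 from one probe and 1.21 from the other, and its value in 4-month sample 3 was partly filled in from the fit over probes and samples. Krtdap, a keratinocyte differentiation-associated protein, measured 5.80, 7.68, 5.26 and 5.40 at 1 month and 5.20, 5.96, 7.82 and 5.50 at 4 months, a difference of -0.02. Corneodesmosin, encoded by Cdsn, measured 2.63, 2.01, 2.86 and 3.07 at 1 month and 2.75, 3.07, 2.42 and 3.28 at 4 months. In contrast to Krtdap, Cdsn had its lowest value of each age in 1-month sample 2 and 4-month sample 3; its difference was 0.26 (adjusted p = 0.690).

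The cysteine-rich protein Crct1, cornifelin (Cnfn) and the calmodulin-like protein Calml3 had differences of -0.04, 0.02 and -0.13. Crct1 measured 6.26, 8.84, 6.34 and 6.39 at 1 month and 6.10, 6.90, 8.67 and 6.40 at 4 months, the same shape as Lor. Cnfn varied least of the 3, between 4.97 and 5.58 over all 8 samples.

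Of the genes for proteases of the cornified layer and their inhibitor, 4 of 5 were tested and none passed. Klk5 and Klk7 encode kallikreins that cut corneodesmosomes. Klk5 measured 5.08, 4.02 and 3.43 in 1-month samples 1, 3 and 4 and 4.77, 5.45, 4.06 and 4.73 at 4 months, a difference of 0.49 (95% interval -0.67 to 1.64, adjusted p = 0.620). Klk7 measured 6.20, 7.95, 5.97 and 6.46 at 1 month and 5.85, 6.04, 7.28 and 6.42 at 4 months over 3 probes with some values filled in, a difference of -0.28 (adjusted p = 0.815). The ages overlapped for both. Spink5, the inhibitor of these kallikreins, had a difference of 0.55 (adjusted p = 0.307), and Asprv1, a protease that acts on profilaggrin, one of 0.52 (adjusted p = 0.756). Asprv1 measured 5.54, 7.48, 5.72 and 5.66 at 1 month and 5.57, 6.64, 8.80 and 6.0 at 4 months, again highest in 1-month sample 2 and 4-month sample 3.

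The filaggrin-type genes were the least covered. Flg had a value on 1 array, 2.81 in 4-month sample 1, and nothing can be read from it about age. Flg2, encoding filaggrin-2, measured 6.50, 8.57, 5.24 and 6.07 at 1 month and 6.04, 7.87 and 5.89 in 4-month samples 1, 2 and 4, a difference of 0.01 (95% interval -1.91 to 1.92, adjusted p = 0.998). A probe of hornerin (Hrnr) measured 4.09, 2.01 and 2.23 in 1-month samples 1, 3 and 4 and 2.95 and 6.31 in 4-month samples 2 and 4, and repetin (Rptn) had values in 4 samples. Casp14, the caspase that helps to break down filaggrin, measured 2.84 and 2.38 in 1-month samples 1 and 3 and 3.11 and 1.95 in 4-month samples 1 and 2. The other untested genes were Lce3f, Sprr2d, Sprr2f and Sprr3, all measured at shared dim values alone.

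Of the genes around this set, taken from 5 lists chosen with earlier results known, 3 of 36 tested passed, a share near the 7.25% of all genes. Among the transglutaminases, which crosslink the envelope, 2 of 4 were tested and 1 rose: Tgm2, the widely expressed form, at 0.08, -0.32, -0.08 and 0.34 at 1 month and 2.34, 1.52, 1.57 and 1.94 at 4 months, by 1.87 ± 0.28 (SE, adjusted p = 0.00879). Tgm1, the keratinocyte form that attaches envelope proteins, measured 4.71 to 5.18 at 1 month and 3.76 to 4.82 at 4 months, a difference of -0.36 (adjusted p = 0.527). Of 8 filaggrin-processing genes, 0 passed and 3 had an unadjusted p under 0.05, as 24.3% of all genes did. Of 6 tested genes for other proteases and inhibitors of the cornified layer, 0 passed and 0 had an unadjusted p under 0.05. Of 7 further genes of the epidermal differentiation complex, 1 rose, Kprp, a keratinocyte proline-rich protein, from 5.87 to 6.85 at 1 month to 7.23 to 8.16 at 4 months (difference 1.25, adjusted p = 0.0477). Of 13 tested regulators of terminal differentiation 1 fell: Vdr, the vitamin D receptor, with 2.51 to 2.64 at 1 month and -0.18 to 2.04 at 4 months (difference -1.68, adjusted p = 0.0490). Without any single sample other than 4-month sample 4, the adjusted p was 0.0506 to 0.182 for Kprp and 0.0558 to 0.154 for Vdr, while Tgm2 passed without any single sample. The Tgm2 call was lost relative to keratins (1.5, adjusted p = 0.583), with means per ID number (adjusted p = 0.0928) and on 1 of its 3 probes (adjusted p = 0.0589).

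Markers of the cells that make up skin were compared between the ages in the same fit, where 4.19% of all genes rose and 3.06% fell. Of the keratinocyte lists, 0 of 6 basal, 0 of 2 spinous and 0 of 4 hyperproliferative genes passed. The hair follicle list had 2 of 8 genes lower at 4 months, Lef1 and Hoxc13, and its mean level lay between 4.52 and 5.30 in the 1-month samples and between 2.81 and 4.44 in the 4-month samples. The cell division list had 4 of 4 genes lower, with means of -0.54 to -0.07 at 1 month and -3.34 to -2.02 at 4 months. In the melanocyte list 2 of 2 fell and in the muscle list 1 of 5 rose, while 0 of 5 fibroblast, 0 of 3 macrophage, 0 of 3 fat, 0 of 3 sebaceous and 0 of 2 B cell genes passed. The part of the follicle and cell division shifts in the age differences above was not tested. No defining marker list of keratinocytes was at or below 0 in any sample.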

How the data were processed

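Skin RNA of 8 Tsk2 samples was measured on 10 two-colour Agilent arrays, from 200 ng of total RNA per the labels' protocols. The authors deposited a table of log2 ratios of both dyes for 41174 probes. How the background was corrected and the arrays normalized is not stated in the labels, and no header states the log base, which is likely 2 from the values. Array files give no counts, and the number of samples limits the precision. Of all measured values, 27.2% to 37.1% per array were values that at least 100 probes of that array share, as dim spots do.

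The sign was turned so that positive reads as skin over reference. Probes were named from the platform annotation, where 32664 have 1 symbol, 45 several and 8465 none. All 59 probes of the rule matched the RefSeq gene table with 0 changed symbols; 58 RefSeq genes fit the rule and 47 have a probe. Exact zeros were set aside and repeat arrays averaged. A gene is the mean of its probes, and a probe missing in a sample was filled in from a fit of probe and sample effects. Each probe needed a value in 3 samples of each age to be used, and a gene was tested where a probe of it was used. Ages were compared with limma 3.58.1 (lmFit, eBayes) in R 4.3.3 with statmod 1.5.0, with the ID number as a random block (duplicateCorrelation, consensus correlation 0.313) and Benjamini-Hochberg adjustment over 13501 genes at a threshold of 0.05. The script was tested on simulated data.

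The genes, the surrounding lists and the tests were chosen with earlier results of these data known. Values are given in every sample for genes past the test, for Lor, Ivl, Flg, Evpl, Ppl, Cdsn, Casp14, Klk5 and Klk7, and for the extreme differences of each family; other genes shown sample by sample, the motifs and the sequences were picked after the values were seen.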

Additional observations from a re-analysis of the deposited data

Results flagged for a closer look

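Within an age, a sample was marked where its gap to the nearest other sample, divided by the range of the 4 samples, exceeded Dixon's critical value at the 95% level. Of 66 groups of 4 samples, 12 were marked, where chance marks about 1 in 20, and the genes are not independent of each other. 1-month sample 2 was the high outlier of its age in 9 genes: Lor at 8.26, Crct1 at 8.84, Asprv1 at 7.48, Calml3 at 7.79, Lce1a1 at 5.99, Lce1a2 at 6.25, Lce1d at 6.15, Lce1f at 6.54 and Lce1m at 7.91. The same sample was the low outlier for Ppl at 2.87 and for Sprr1a at 1.54. At 4 months, sample 1 was the low outlier for Sprr2k at 0.47. In 1-month sample 2 the basal keratinocyte list (mean 4.36), the muscle list (5.64) and the fat list (7.63) were also the highest of their age. The same held for the spinous (6.57), hair follicle (5.30), hyperproliferative (4.61) and B cell (-2.34) lists, while the macrophage list (-0.22) was the lowest of its age. The part of this in the outlying values was not tested.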

How the results depend on the processing

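Over 22 alternative settings, 2 of them chosen after seeing the data (leaving out 1-month sample 2 with 4-month sample 3, and setting shared values aside), the median difference of the tested Lce genes was above 0 in all, from 0.22 to 1.38. The number of envelope genes higher at 4 months, 1 in the fit reported, was 3 without the ID block and without both samples that stood apart, and 2 after median centring. Of all genes, 15%, 9.6% and 7.68% passed in these fits, in either direction. The number higher was 0 with each probe fitted on its own, means per ID number, the ID suffix as a covariate or exact zeros kept. It was also 0 after quantile normalization, with the first array of each sample alone and relative to keratins. In these fits 3 to 7 envelope genes, or probes in the probe fit, had an unadjusted p under 0.05. Their share lay below that of all genes in each fit but the one relative to keratins. With the suffix it was 7 of 38 against 3143 of 13501, and after quantile normalization 3 of 38 against 3307 of 13501. Relative to keratins it was 4 of 38 against 995 of 13501. The number higher ran from 0 to 2 when single samples were left out. The number lower was 1 after quantile normalization (Ppl), and 0 to 1 when single samples were left out, the 1 being Sprr1a without 4-month sample 4. Over all genes the 979 calls became 2022 without the ID block, 581 with the suffix, 102 relative to keratins (where the median of all genes moved from 0.03 to -0.32) and 0 with means per ID number by limma, where 2530 genes had an unadjusted p under 0.05. Leaving out single samples gave 157 (without 1-month sample 1) to 2172 (without 4-month sample 4), with 473, 504 and 496 without 4-month samples 1, 2 and 3. No paired analysis was possible because the ages share no ID number.

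Among the named genes, differences that changed sign ran from -0.28 (Klk7) to 0.49 (Klk5) in the fit reported, each smaller in size than its standard error. For Evpl it was 0.03 by probe, 0.05 without the ID block, 0.12 with the suffix, 0.01 after centring, 0.06 without both samples, and -0.26 to 0.24 leaving out single samples. For Ivl it was 0.32 with zeros kept, 0.06 with first arrays, and -0.42 to 0.27 leaving out single samples. For Klk7 it was 0.04 with the suffix and -0.69 to 0.12 leaving out single samples. For Sprr2h it was -0.10 with zeros kept and -0.14 without both samples. Quantile normalization gave -0.04 for Lor, -0.19 for Cdsn and -0.17 for Lce1d, and the keratin scaling -0.01, -0.11 and -0.06, with -0.27 for Klk5. Leaving out single samples gave -0.24 to 0.97 for Lor and -0.32 to 0.89 for Lce1d. The causes were not tested. Of the comparisons of named genes over settings, 333 kept direction and side of the threshold, 46 lost the call, 10 gained it and 29 changed sign. Only Sbsn, Tgm2, Kprp and Vdr passed in the fit reported and could lose a call. They passed in 9 of 23, 21 of 24, 8 of 22 and 7 of 22 comparisons. Without both samples the ID block could not be fitted, so that setting has none. Dim spots limit the Sprr2 and Lce1l values.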
